A study of Mus musculus with 9 samples.

Results

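Interferon-induced genes were followed across 9 lung arrays through 9 named genes: the transcription factor Irf7, the antiviral effectors Ifit1, Ifit2, Ifit3, Oasl2 and Rsad2, the ubiquitin-like modifier Isg15, its protease Usp18, and Ifi44. They were chosen by gene symbol, taking each probe set (a group of short probes for 1 transcript) whose single symbol in the platform's annotation was one of these names. This gave 9 probe sets for 7 of the 9 genes, out of 22690 probe sets and 12394 named genes on the array. Rsad2 has 3 probe sets and the other 6 genes have 1 each. Isg15 is read only by a probe set shared with the pseudogene Gm9706, so its values are given apart and are not those of Isg15 alone. Ifi44 is not analysed here.

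The lungs came from FVB/N mice whose own Cftr gene was intact in every group (mCftr+|+), and the study asked what extra normal human CFTR does to lung mRNA. HO mice carried 2 alleles of SP-C-hCFTR, a human CFTR cDNA under the surfactant protein C (Sftpc) promoter, which drives it in respiratory epithelial cells. HE mice carried 1 allele and WT mice 0, with 3 arrays in each group. The labels give the mice as adult, do not say whether each array came from a separate animal, and give no genotype field for WT replicate 3. HO replicate 2 is titled homozygous but described with 1 allele, and was kept as HO. The replicate numbers also part the samples into 3 source sets, each with 1 array of each group. Every array was alike in overall signal, with medians from 697.1 to 741.75. The type II cell markers were bright on all 9 arrays, with Sftpc between 15.616 and 16.056 on the log2 scale on the 8 arrays other than WT replicate 1 and 0.166 above their mean on that array.

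Type I interferons signal through a receptor that activates a complex with Stat2 and Irf9 that binds an interferon-stimulated response element (ISRE) in the promoters of its targets. The Ifit proteins bind viral or foreign RNA, or partners that do, Rsad2 makes a chain-terminating nucleotide, and Oasl2 belongs to the oligoadenylate synthetase family, which senses double-stranded RNA. Irf7 amplifies the response by driving interferon genes, while Usp18 removes Isg15 from proteins and dampens the receptor. Interferon gamma signals through another receptor to a partly different set of targets, among them the guanylate-binding proteins.

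The ISRE was searched in the 250 bases upstream of the start site in each gene's promoter entry (GRCm38.p6), as the letters GAAANNGAAA on either strand. This start site, called the start below, can differ from the RefSeq gene start. The Ifit3 window lies inside the RefSeq span of that gene, which begins at 34583119. The windows of Ifit2, Irf7 and Oasl2 also reach into their gene spans. The ISRE letters were present for Ifit1, Ifit3, Rsad2 and Isg15, which is 4 of the 8 genes with a promoter entry, and in 3.46% of the 27025 genes with one. No match lay in the windows of Ifit2, Irf7, Oasl2 and Ifi44, and Usp18 was not searched. The upstream stretches of Ifit1, Ifit3 and Rsad2 are printed because they hold matches. They run 5′ to 3′ on the gene's strand, and capitals mark the matches, which here read on the opposite strand. Ifit1 holds matches at 104 to 95 and 85 to 76 bases before the start in chr19:34640639-34640888 (plus strand). Ifit3 holds matches at 156 to 147 and 122 to 113 bases before the start in chr19:34583279-34583528 (plus strand). Rsad2 holds 1 match at 120 to 111 bases before the start in chr12:26456453-26456702 (minus strand).
Ifit1: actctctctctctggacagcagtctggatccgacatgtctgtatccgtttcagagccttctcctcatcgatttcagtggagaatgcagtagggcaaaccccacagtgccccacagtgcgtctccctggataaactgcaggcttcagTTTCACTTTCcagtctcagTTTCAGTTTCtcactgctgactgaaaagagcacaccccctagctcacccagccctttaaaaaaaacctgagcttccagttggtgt
Ifit3: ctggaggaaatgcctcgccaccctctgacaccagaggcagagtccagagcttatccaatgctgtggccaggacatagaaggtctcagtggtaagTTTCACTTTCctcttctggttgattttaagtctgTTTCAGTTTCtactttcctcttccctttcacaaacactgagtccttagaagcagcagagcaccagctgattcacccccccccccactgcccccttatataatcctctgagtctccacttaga
Rsad2: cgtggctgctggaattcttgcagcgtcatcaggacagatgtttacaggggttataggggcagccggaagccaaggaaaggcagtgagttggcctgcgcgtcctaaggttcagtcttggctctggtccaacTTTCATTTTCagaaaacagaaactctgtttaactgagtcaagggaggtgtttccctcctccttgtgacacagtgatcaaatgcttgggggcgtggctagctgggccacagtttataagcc
The capitals of the first and second matches of Ifit1 and Ifit3 are the same letters in the same order, TTTCACTTTC and then TTTCAGTTTC. Isg15 has 3 overlapping matches on its own strand between 78 and 57 bases before its start. A match is a description of these letters and does not show binding. Oasl2 and Irf7, the members whose signal rose most on the array described below, held no match. Among other genes measured here the ISRE letters were found in 6 of 29 further type I interferon targets and in 7 of 17 interferon gamma targets with a promoter entry. Ifit2, Ifit3 and Ifit1 are neighbours on chromosome 19, between positions 34550550 and 34650009.

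One array held most of the signal of these genes above the common level. WT replicate 1 had the highest value of all 9 arrays at 9 of 9 member probe sets, against 13.9% of the 13576 probe sets tested. It lay at least 1 log2 unit, a doubling of signal, above the mean of the other 8 arrays at 8 of 9, against 0.295% of all tested probe sets (40). No other array had a member probe set that far above the rest. HO replicate 1 and HE replicate 1, from the same source set, had member medians of -0.02 and -0.24 against the other 8 arrays. A single array has no replicate of its own, so this difference carries no test.

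Signal is given as deposited, in linear intensity units, for replicates 1, 2 and 3 of each group, and the level of 1 probe set is not set against that of another. Irf7 read 1031, 717.9 and 714.4 in HO lungs, 968.5, 987.3 and 1222 in HE lungs, and 4100, 914.9 and 620.9 in WT lungs. WT replicate 1 stood 4.67-fold above the mean of the other 8 arrays (2.22 on the log2 scale), and without it the HO and WT values overlapped while all 3 HE values lay above both remaining WT values. Oasl2 read 947.8, 732.7 and 800.4 in HO lungs, 971.2, 1008 and 1306 in HE lungs, and 4461, 579 and 706.9 in WT lungs. This was the widest gap among the members, 5.21-fold in WT replicate 1, while WT replicates 2 and 3 were the 2 lowest of the 9 arrays.

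Ifit1 read 1266, 1574 and 1105 in HO lungs, 1191, 1228 and 1382 in HE lungs, and 4101, 1581 and 1306 in WT lungs. It was 3.11-fold higher in WT replicate 1, and the other 8 arrays had a small spread (log2 SD 0.185). Ifit3 read 2094, 2831 and 2525 in HO lungs, 1841, 3117 and 2154 in HE lungs, and 5635, 2845 and 2104 in WT lungs. It was 2.35-fold higher in WT replicate 1, and replicate 2 was the highest array of the HO and HE groups and of the 2 other WT arrays. Ifit3 has a close mouse paralogue, Ifit3b, and whether the probe set also reads it was not tested. Ifit2 read 1132, 1244 and 1056 in HO lungs, 1005, 1372 and 1178 in HE lungs, and 1534, 952.6 and 895.5 in WT lungs. Ifit2 was the exception among the members, only 1.40-fold higher in WT replicate 1 (0.49 on the log2 scale), with HE replicate 2 close below it.

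Usp18 read 1846, 1359 and 1093 in HO lungs, 1576, 1581 and 1354 in HE lungs, and 4334, 1458 and 1233 in WT lungs. It was 3.05-fold higher in WT replicate 1, and the 3 groups overlapped on the other arrays. The probe set shared by Isg15 and Gm9706 read 568, 556.7 and 400 in HO lungs, 556.1, 451.8 and 553.7 in HE lungs, and 1741, 461.3 and 442.5 in WT lungs. It was 3.52-fold higher in WT replicate 1, in the same array as the members.

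For Rsad2, 2 further arrays were high, HO replicate 3 and HE replicate 3. HE replicate 3 also came next after WT replicate 1 for Irf7 and Oasl2, at 0.26 and 0.386 log2 units above the mean of the other 8 arrays. HO replicate 3 was below that mean for the members other than Rsad2. The brightest Rsad2 probe set, 1436058_at, read 2403, 1662 and 3213 in HO lungs, 1501, 1935 and 3103 in HE lungs, and 4498, 1245 and 1601 in WT lungs. HO replicate 3 and HE replicate 3 came next after WT replicate 1, which was 2.28-fold above the other 8, while WT replicate 3 was low. The probe set 1421008_at read 498, 336.8 and 1039 in HO lungs, 510.8, 381.9 and 833.3 in HE lungs, and 1133, 516 and 545 in WT lungs. The probe set 1421009_at read 558.8, 336.8 and 727.8 in HO lungs, 425.1, 494.5 and 670.8 in HE lungs, and 1015, 358 and 468.6 in WT lungs. HO replicate 2 has the identical deposited value, 336.8, at both of these probe sets. All 3 probe sets put the same 3 arrays on top in the same order, WT replicate 1, HO replicate 3 and HE replicate 3.

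**Figure D1:**
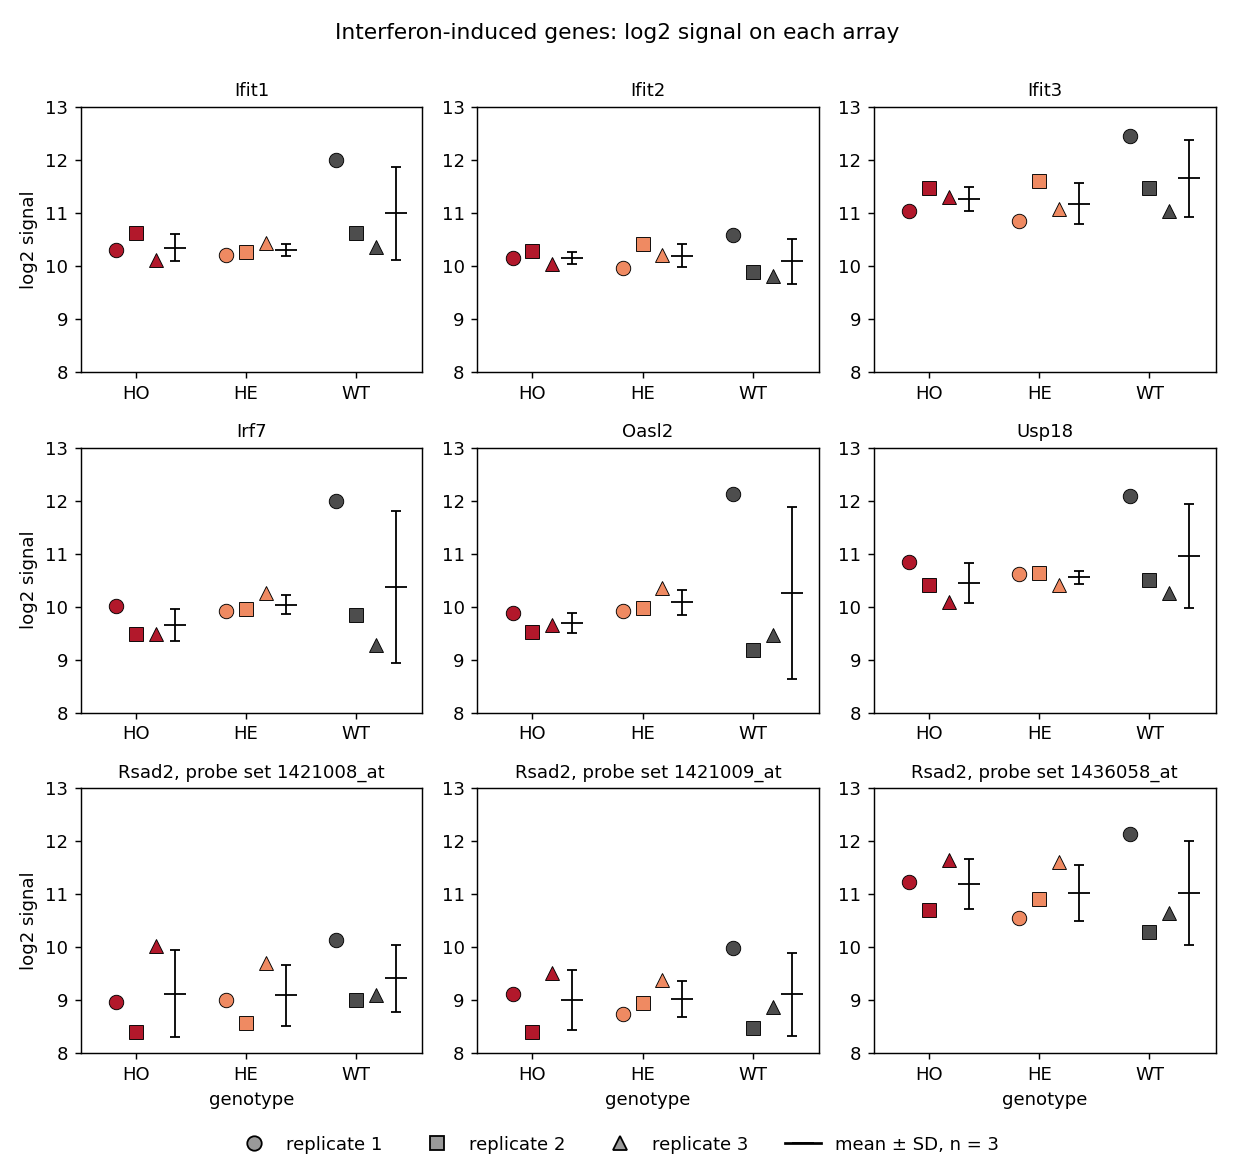
Log2 signal (y axis) of the 9 member probe sets on each array, by genotype (x axis: HO, HE, WT), with replicate number as the marker shape; the bars beside the points are the group mean ± SD (n = 3). The circle of WT replicate 1 is the highest point in all 9 panels, and the WT error bar is widest for Oasl2 (SD 1.624) and Irf7 (SD 1.438).

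No member passed the test between genotypes. In HO against WT lungs, 0 of the 9 member probe sets passed an adjusted p of 0.05 (limma, Benjamini-Hochberg over all 13576), as did 0% of all probe sets, and at an unadjusted p under 0.05 there were 0 members against 4.49% of all (610). The member differences ran from -0.71 for Irf7 to 0.17 for Rsad2 (1436058_at), with 7 of 9 below 0 and a median of -0.39, against a median of -0.005 over all probe sets. Ifit1 had the lowest p, averaging 10.35 ± 0.26 in HO lungs and 10.99 ± 0.88 in WT lungs on the log2 scale (SD, n = 3 each), a difference of -0.65 ± 0.34 (SE) with an adjusted p of 0.992 in limma. HO and WT lungs overlapped at all 9 member probe sets, whereas every HO array lay above every WT array at 3.98% of all probe sets and below at 4.9%.

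In HE against WT lungs, 0 of 9 members passed the adjusted threshold in limma, again as 0% of all probe sets did, and 0 members had an unadjusted p under 0.05 against 3.11% of all (422). The differences ran from -0.69 for Ifit1 to 0.10 for Ifit2, with 7 of 9 below 0 and a median of -0.32, against -0.007 over all probe sets. HE and WT lungs overlapped at all 9 as well, while HE lay wholly above WT at 3.25% of all probe sets and wholly below at 4.45%. The same 3 WT arrays enter both comparisons. In HO against HE lungs, where the WT arrays enter only through the spread, 0 members passed in limma, as did 0% of all, and 0 had an unadjusted p under 0.05 against 2.56% (348). Those differences ran from -0.40 for Oasl2 to 0.17 for Rsad2 (1436058_at), with a median of -0.01 over the members. For the mean of HO and HE against WT, 0 members passed and 0% of all probe sets; Ifit1 was the 1 member with an unadjusted p under 0.05 in limma (-0.67 ± 0.29, SE, adjusted p = 1), against 4.19% of all (569). The F test over the 3 genotypes passed 0 members and 0% of all probe sets in limma, with 0 members at an unadjusted p under 0.05 against 3.09% (420).

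The direction of these differences rested on WT replicate 1. Without it, the member median was 0.10 in HO against WT lungs, with 8 of 9 above 0, and 0.35 in HE against WT lungs, with 7 of 9 above 0. Ifit1 stayed below 0 in both, at -0.14 and -0.19. No member passed without this array either, where 1 of 13576 probe sets, not a member, passed in each of the 2 comparisons (0.00737%). At an unadjusted p under 0.05 there was 1 member in HO against WT, Rsad2 (1436058_at), against 3.96% of all probe sets, and 1 in HE against WT, Oasl2, against 2.74%. Oasl2 then had the lowest p of the members, averaging 10.08 ± 0.23 in HE lungs (SD, n = 3) and 9.32 ± 0.20 in the 2 other WT lungs (SD, n = 2), a difference of 0.76 ± 0.19 (SE). Its unadjusted p in limma was 0.00193 and its adjusted p was 1. WT replicate 1 was singled out because it was highest at these same probe sets. The unadjusted p-values without it therefore describe the remaining arrays and are no evidence of a genotype difference. In HO against HE lungs, where WT replicate 1 bears only on the spread, leaving it out gave 1 member at an unadjusted p under 0.05, Oasl2 (-0.40), against 2.53% of all. For the mean of HO and HE against WT it gave 2, Oasl2 and Rsad2 (1436058_at), against 3.17%, and for the genotype F test 1, Oasl2, against 2.65%. Every HE value lay above both remaining WT values at 3 of 9 member probe sets, Ifit2, Irf7 and Oasl2, against 6.74% of all probe sets. Every HO value did so at 3 of 9, Ifit2, Oasl2 and Rsad2 (1436058_at), against 8.49% of all. These 2 counts share the same 2 low WT arrays.

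**Figure D2:**
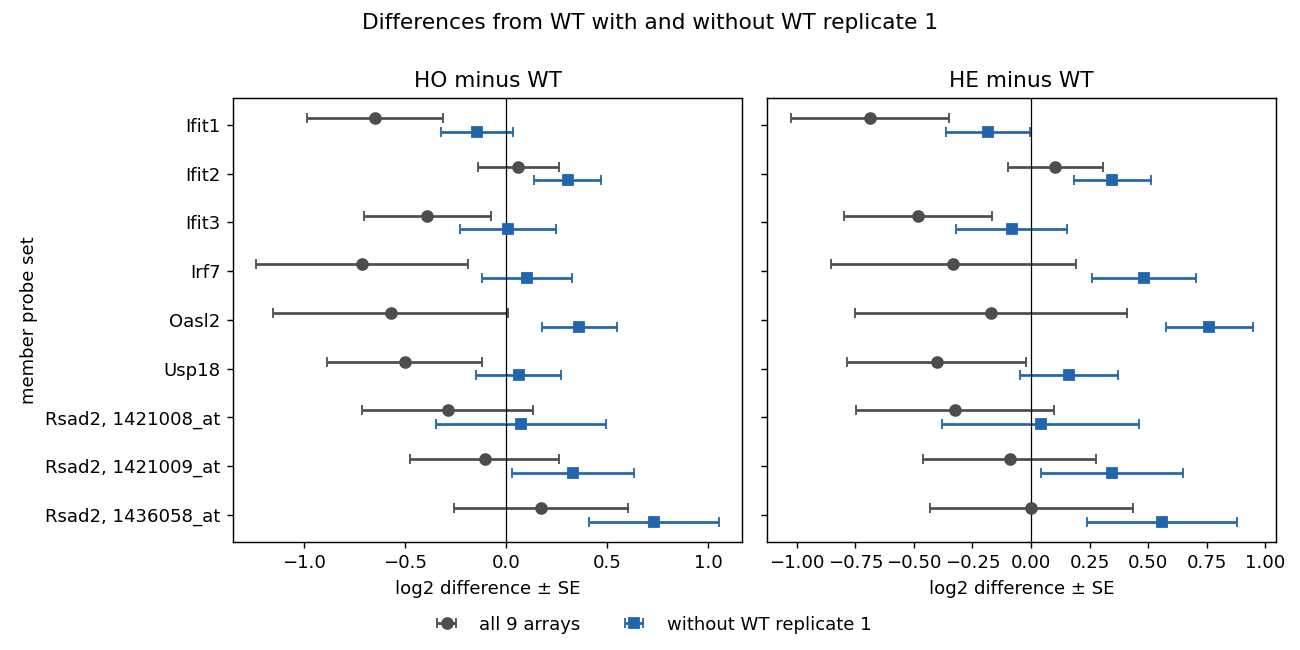
Log2 differences of HO from WT (left) and of HE from WT (right) at the 9 member probe sets (y axis), with the moderated standard error from limma, from all 9 arrays (grey circles) and without WT replicate 1 (blue squares). Without that array the points move to the right at all 9 probe sets in both comparisons, and Ifit1 stays left of 0. The shift follows from WT replicate 1 being the highest array at each member probe set.

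Replicate numbers were compared across the 3 genotypes, with genotype as a covariate. No member passed the F test over the 3 numbers in limma (0 of 9), where 0.0147% of all probe sets did (2), and 1 member, Usp18, had an unadjusted p under 0.05 against 12% of all (1633). Usp18 was lower in replicates 2 and 3 than in replicate 1, by -0.67 ± 0.28 and -0.93 ± 0.28 (SE), with an adjusted p of 0.354 in limma's F test. Without WT replicate 1 these differences were -0.22 and -0.48. Without WT replicate 1, 4 of 9 member probe sets had an unadjusted p under 0.05 in limma's F test, against 8.57% of all probe sets. They were Ifit3 and the 3 Rsad2 probe sets, which read 1 gene and are not separate members. Of the 9, 0 passed the adjusted threshold, and these p-values too come from leaving out an array picked by its member values. Rsad2 (1421008_at) differed most between numbers 3 and 2, by 0.94 with an adjusted p of 0.553 in limma. Between numbers 2 and 1 no member passed in limma, where 0.0295% of all probe sets did (4), and 1 member had an unadjusted p under 0.05 against 11.2% of all. For 3 against 1 and 3 against 2, 0% of all probe sets and no member passed, with 1 member at an unadjusted p under 0.05 in each, against 11.6% and 8.61% of all.

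The members co-varied over the 9 arrays. Pearson's r between 2 member genes, each at its brightest probe set, was above 0 for all 21 pairs, from 0.495 (Ifit3 and Rsad2) to 0.954 (Irf7 and Oasl2), with a median of 0.755. Spearman's rho, which reads only the order of the arrays, had a lower median of 0.483. Irf7 and Oasl2 gave r = 0.954 (two-sided exact permutation p = 0.00297, adjusted over the 21 pairs 0.0393) and rho = 0.833 (exact permutation p = 0.00827, adjusted 0.174). In all, 3 pairs had an adjusted p under 0.05 by Pearson's r, Irf7 with Oasl2, Irf7 with Usp18 and Oasl2 with Rsad2, and 0 did by Spearman's rho. Since the genes were picked as interferon targets with earlier results known, these p-values describe the arrays and support nothing about the choice of genes.

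Most of this co-variation rested on 1 array. Without WT replicate 1 the median r was 0.253, and 14 of 21 pairs stayed above 0. Without the 2 arrays farthest from the median of the members' mean profile (WT replicate 1 and HE replicate 3) the median was 0.112, with 11 of 21 above 0. Irf7 and Oasl2 kept r = 0.70 over the 8 arrays without WT replicate 1, and 0.51 without both. Irf7 and Usp18 kept 0.625 and 0.868. Ifit1 and Rsad2 gave r = 0.50 (exact permutation p = 0.157) over 9 arrays and -0.50 without WT replicate 1. Deviations from the group means, which take out any genotype difference, had a median r of 0.831 over all 9 arrays. This value includes WT replicate 1, so it does not show co-variation apart from that array.

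**Figure D3:**
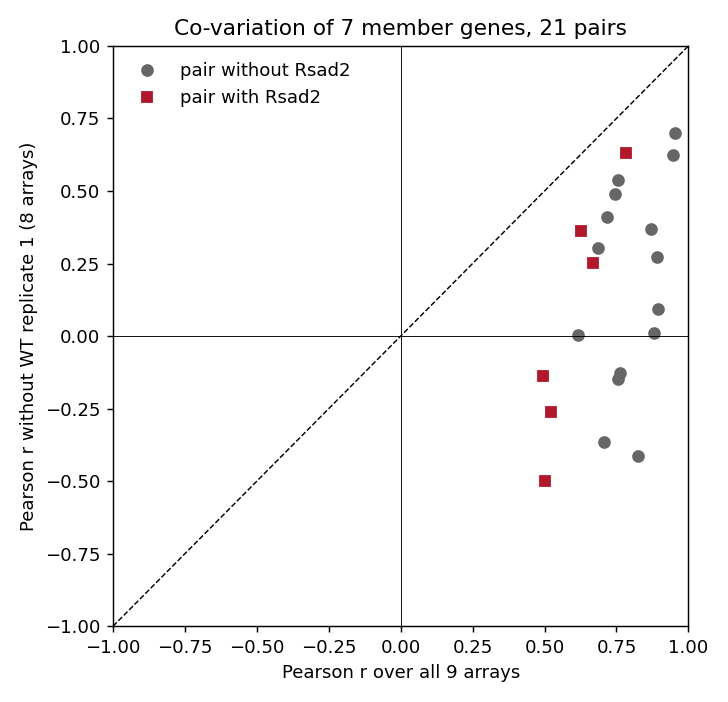
Pearson's r for the 21 pairs of 7 member genes over all 9 arrays (x axis) and over the 8 arrays without WT replicate 1 (y axis); red squares are pairs with Rsad2, and the dashed line marks equal values. All 21 points lie right of 0 on the x axis and below the dashed line, and 14 stay above 0 on the y axis.

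By a fixed rule, the 12 other genes whose signal followed the mean member profile most closely were named. They were Parp9 (r = 0.964 over 9 arrays), Rspo1 (0.949), Acp1 (0.939), Cd300c2 (0.930), Tnfrsf22 (0.928), Lrp10 (0.927), Phgdh (0.926), Irf9 (0.924), Eif2ak2 (0.917), Ifi209 (0.915), Oas1a (0.911) and Oas2 (0.905). These were the highest of 8177 genes, of which 0.722% (59) reached an r of 0.8, so they are a description. Of the 12, 5 stood in the interferon lists: Parp9, Irf9, Eif2ak2, Oas1a and Oas2. Without WT replicate 1 the r of these 12 ran from 0.086 (Ifi209) to 0.746 (Rspo1 and Tnfrsf22), with a median of 0.532; it was 0.33 for Oas2, 0.333 for Irf9 and 0.346 for Acp1.

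Other type I interferon targets showed the same array. Of 61 listed, 36 were tested; 20 were highest in WT replicate 1, against 15.2% of the 8184 genes tested at 1 probe set each. At least 1 log2 unit above the other 8 arrays were 6 of the 36, against 0.33% of all genes, and the list median was 0.39, against 0.02 over all genes. Ifi27l2a led (2.43), followed by Rtp4, a chaperone that also acts against viruses (1.93), and the oligoadenylate synthetase Oas2 (1.38). Lgals3bp, a secreted glycoprotein, was 13.244 in WT replicate 1 and between 11.602 and 12.331 on the others. The nucleotide kinase Cmpk2 (1.24) and Oas1a (1.205) completed the 6. Ifitm1 (-0.63) and Ifitm2 (-0.15), membrane proteins that block viral entry, were below the mean of the other arrays, and Bst2, which tethers virions, was near it (0.08). Of 11 further targets that were too dim to be tested, 7 were highest in WT replicate 1 (21.6% of all 4209 genes below the filter were), among them Mx1 at 502.6 against a median of 200 over the 9 arrays, and Oas3 at 897 against 393.

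The members and their list made up 15 of the 40 probe sets that lay at least 1 log2 unit higher in WT replicate 1: 8 member probe sets and 7 of listed interferon genes, Cmpk2 with 2. Another 18 belonged to genes outside the interferon lists, among them Slfn4, Ifi209, Ntmt1 and Upk3b, picked here after their values were seen. The lists are not complete, so a gene outside them may still be interferon-induced. Slfn4 was not highest in WT replicate 1, at 10.533 on the log2 scale against 10.979 on another array. The remaining 7 of the 40 had no single symbol, and the probe set shared by Isg15 and Gm9706 (1.815) was among them. WT replicate 1 also had 45 probe sets at least 1 log2 unit below the other arrays (0.331%).

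In the lists of interferon ligands, receptors, signalling genes and sensors, the signal in WT replicate 1 was mixed. Standing in one of these lists does not settle whether a gene is itself an interferon target. The interferon genes themselves were dim: 9 ligands had a probe set and 0 passed the filter. Of the 9, 2 were highest in WT replicate 1, Ifna5 (149.8, against a median of 33.4 over the 9 arrays) and Ifna11 (315.5, against 201), while 21.6% of all 4209 genes below the filter were highest there. Ifnb1 read 277.9 in WT replicate 1 within a range of 204 to 372. None of the 5 receptor chains tested was highest in WT replicate 1, and their median there was -0.10, from Ifngr2 at -0.63 to Ifnar2 at 0.00. Of 14 signalling genes, 2 were highest there, Irf9 (0.77) and Stat2 (0.56), which at 14.3% is near the 15.2% of all genes. Socs3, a feedback inhibitor, was low (-0.95), as was Irf1 (-0.49). Among 10 nucleic acid sensors 3 were highest there, against 15.2% of all genes. They were Ifih1, a sensor of double-stranded RNA (0.93), Eif2ak2, the RNA-activated kinase PKR (0.94), and Sting1 (0.25), while Tlr3 was low (-0.64). Of 5 further sensors too dim to be tested, 3 were highest there, Dhx58, Zbp1 and Tlr9, against 21.6% of genes below the filter. Dhx58 is also counted among the dim targets above. Socs1, a dim signalling gene, was not highest there.

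Interferon gamma targets were high on a different array. Of 22 tested, 15 were highest in HE replicate 2, against 10.8% of all genes, and 9 lay at least 1 log2 unit above the other 8 arrays, against 0.305%; the list median was 0.78. Gbp8 (1.996), Irgm2 (1.63) and Igtp (1.60), which are interferon-induced GTPases, led, and Gbp2 was 13.057 in HE replicate 2 against at most 12.373 elsewhere. The antigen transporter Tap1 (0.88) and the proteasome subunit Psmb9 (0.80) were also highest there, and the class I heavy chain H2-K1 was not (-0.12). In HE replicate 2 the members ran from -0.71 to 0.31, with a median of -0.09. In WT replicate 1 the interferon gamma list had a median of 0.205, with 5 of 22 highest, and Gbp8 was low (-0.86).

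**Figure D4:**
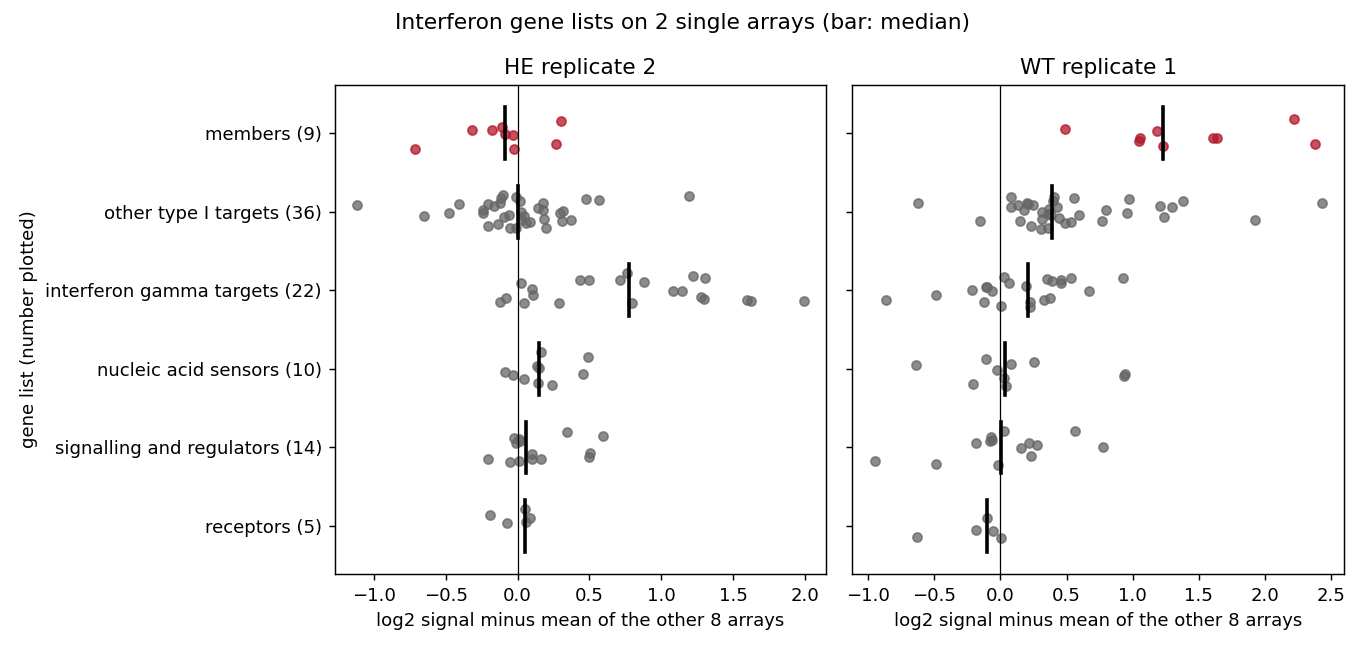
Log2 signal minus the mean of the other 8 arrays (x axis) for HE replicate 2 (left) and WT replicate 1 (right), with 1 point per probe set for the members and 1 per gene for each interferon list (y axis), and a bar at the median. The members lie between 0.487 and 2.38 in WT replicate 1 and between -0.713 and 0.306 in HE replicate 2, while interferon gamma targets reach 1.996 in HE replicate 2.

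Between genotypes none of these lists held a gene past the threshold in limma. In HO against WT lungs 9 of the 36 other type I targets were higher and 27 lower, with a median of -0.135 (0 over all genes) and 3 at an unadjusted p under 0.05, against 4.49% of all probe sets; without WT replicate 1 these were 22 higher, 14 lower and a median of 0.07. In HE against WT lungs 10 were higher and 26 lower, with a median of -0.17 and 2 at an unadjusted p under 0.05, against 3.11% of all probe sets; without WT replicate 1 there were 23 higher and 13 lower, with a median of 0.07. Slfn2, a regulator of lymphocyte quiescence, averaged lower in both, by -0.45 ± 0.17 and -0.455 ± 0.17 (SE, adjusted p = 0.992 and 1 in limma). For the interferon gamma list the medians were -0.006 for HO and -0.026 for HE against WT, and 0.006 and 0.073 without WT replicate 1. In HE against WT this list had 8 genes higher and 14 lower with all arrays, and 16 higher and 6 lower without that array. Jak2, a receptor kinase, had a difference of 0.47 ± 0.20 (SE) in HO against WT lungs with an adjusted p of 0.992 in limma.

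Markers of cells that could carry an interferon signal are given beside the result in WT replicate 1. None of the 5 plasmacytoid dendritic cell markers tested, of 10 listed, was highest there (median 0.01), and their summed signal was 10760 in that array, against 9724 to 12230 in HO lungs, 9759 to 11960 in HE lungs, and 11350 and 10670 in the 2 other WT lungs. None of 7 alveolar macrophage markers was highest there (median 0.10), with a sum of 37510 against 36550 to 39030 in HO, 34130 to 38940 in HE and 38930 and 37120 in the 2 other WT lungs. Of 12 monocyte and interstitial macrophage markers 3 were highest there (median 0.14), with a sum of 84820 against 72680 to 89120 in HO, 74120 to 90130 in HE and 80770 and 73860 in the 2 other WT lungs. Neutrophil markers summed to 11460 in WT replicate 1, the lowest of the WT arrays, against 9589 to 26790 in HO, 12930 to 63600 in HE and 47350 and 12740 in the 2 other WT lungs. Of 10 T and NK cell markers 2 were highest (median 0.34), with Gzmb at 0.68 and Cd3d at -1.23, and a sum of 10480 against 8540 to 11640 in HO, 8558 to 9624 in HE and 8520 and 9842 in the 2 other WT lungs. Of 9 type II cell markers 1 was highest there, and their sum of 250500 was the highest of the 9 arrays, against 223400 to 250100 in HO, 214700 to 238600 in HE and 250400 and 201500 in the 2 other WT lungs. Of 5 B cell markers 1 was highest, with a sum of 6022 against 4685 to 7563 in HO, 4371 to 6234 in HE and 6231 and 6348 in the 2 other WT lungs. The 1 red cell marker tested was not highest there, at 11960 against 8570 to 16180 in HO, 6594 to 16760 in HE and 5599 and 8169 in the 2 other WT lungs. Low values were set to a floor and tested markers had passed the filter, so none could read 0, and this shows nothing about which cells were present. In whole lung RNA more cells of a type and more RNA per cell cannot be told apart, and the part of these cells in the result was not tested. As a measure of RNA length, the 3′ over 5′ ratio of the Actb controls was 1.301 in WT replicate 1, within 1.072 to 1.388 over all arrays.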

How the data were processed

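Lung total RNA was hybridised, after biotin labelling, to Affymetrix mouse 430A arrays, 9 in all, per the labels. Each probe set has 1 deposited intensity per array, on a linear scale; from the values, the authors scaled each array to the same mean after trimming 2% at either end (1500.37 to 1500.41). The method that summarised probes was not given in the sources used here; detection calls were not used. Values below the 5th percentile of the table (25.5) were set to it, and log2 was taken. The 64 control probe sets and those under the 40th percentile of mean log2 (8.90) were left out, leaving 13576; all 9 member probe sets stayed, also on the mean without WT replicate 1. Group means were fitted to all 9 arrays with limma 3.58.1 (lmFit and eBayes, R 4.3.3), without the replicate number, which entered as a block in an alternative; replicate numbers were fitted with genotype as a covariate. Adjustment was Benjamini-Hochberg over 13576 probe sets at 0.05. Correlations were tested by exact permutation of the arrays (Python 3.11.15, scipy 1.17.1, numpy 2.4.6).

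Groups came from the sample titles, so p-values measure only the spread between these samples, which may be technical. Deviations of same-numbered HO and WT arrays had an r across probe sets of 0.193, 0.139 and 0.276 for numbers 1, 2 and 3. The r was 0.301, 0.05 and 0.043 for HE with WT, and 0.156, 0.15 and 0.028 for HO with HE. Without the r of differently numbered arrays beside them, these values do not settle whether the numbers pair the groups. No array copied another (smallest median absolute log2 difference 0.145). The platform's annotation gave a single symbol to 20380 probe sets, more than 1 symbol to 691, which were left unnamed, and none to 1555. RefSeq GRCm38.p6 gave gene positions, and promoter entries of the same build gave the start sites and upstream sequence.

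The members, the 14 lists of pathway genes and cell markers, and the tests were chosen with earlier results of these data known. Named genes were all member probe sets, up to 5 genes per pathway list by lowest p of the F tests, and the 12 genes most correlated with the member profile. Other genes, such as those leading WT replicate 1 or HE replicate 2, were picked after their values were seen. Tested on simulated data for HO against WT, the fit recovered 11.2% of changes of 0.5 log2 units, 89.4% of changes of 1 and 99% of changes of 1.5, at 8.5 false calls a run. These shares do not carry over to members with a wide spread between arrays. In HO against WT the SE was 0.581 for Oasl2 and 0.523 for Irf7.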

Additional observations from a re-analysis of the deposited data

How the results depend on the processing

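Under each alternative (quantile normalization, median centring, other floors and filters, the replicate block, a trended and robust fit, array weights, HO replicate 2 counted as HE, and each array left out), 0 member probe sets passed in any comparison. The replicate block left 0 probe sets past the threshold in each genotype comparison and member medians of -0.391 for HO and -0.324 for HE against WT, and changed no call. Leaving out 1 array at a time gave 0 to 1 probe sets over all for HO, HE and both against WT and for the genotype F test, the 1 in each without WT replicate 1. With no filter there were 2 for HE against WT, HO against HE and the genotype F test. For numbers 2 against 1 (4), the count was 0 with no filter, 19 with no genotype term, 9 with the trended and robust fit, 0 with HO replicate 2 as HE and 0 to 6 with an array left out; without HO replicate 1 it was 1, without HO replicate 2, HE replicate 1 or HE replicate 2 it was 0, and without HE replicate 3 or WT replicate 3 it was 2. For 3 against 1 it was 3 with the trended and robust fit and 0 to 1 with an array left out. The F test over numbers (2) gave 1 with quantile normalization, median centring, a filter at the 60th percentile or no genotype term, 5 with the trended and robust fit, 0 with no filter or with HO replicate 2 as HE, and 0 to 1 with an array left out. The cause of these shifts was not tested.

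With an array left out, member medians ran from -0.575 to 0.346 for HE and from -0.746 to 0.292 for both against WT. Member differences crossed 0 as follows. For HO against WT the ranges were -0.083 to 0.305 for Ifit2, -0.7 to 0.01 for Ifit3, -1.26 to 0.102 for Irf7, -1.111 to 0.362 for Oasl2, -0.845 to 0.062 for Usp18, and -0.738 to 0.075, -0.42 to 0.332 and -0.197 to 0.73 for Rsad2 at 1421008_at, 1421009_at and 1436058_at. For HE against WT they were -0.04 to 0.348 for Ifit2, -0.879 to 0.483 for Irf7, -0.711 to 0.762 for Oasl2, -0.746 to 0.162 for Usp18, and -0.629 to 0.041, -0.406 to 0.346 and -0.367 to 0.56 for the 3 Rsad2 probe sets in that order. Counting HO replicate 2 as HE gave -0.001 for Ifit2 and 0.075 and 0.202 for Rsad2 (1421008_at and 1421009_at) in HO against WT. In HE against WT, Rsad2 (1436058_at) was -0.079 with that change, -0.004 after quantile normalization and -0.042 with array weights. The count of members at least 1 log2 unit higher in WT replicate 1 was 8 with other scalings and floors, and 5 with a filter at the 60th percentile, which leaves 6 members; over all probe sets it was 17 with that filter and 732 with none. These counts for WT replicate 1, giving the tests without it apart, and leaving it out of the correlations (0.253) were chosen after seeing the data. The median pairwise r was 0.483 by Spearman's rho and 0.112 without the 2 farthest arrays. The number of arrays and the lack of detection calls limit what dim probe sets show.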

Other observations

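Beside the interferon targets, 3 genes known from the mesothelium, the sheet of cells that covers the lung, had their highest value in WT replicate 1. Upk3b was 12.181 there on the log2 scale and between 10.153 and 11.877 on the other 8 arrays. Aldh1a2, a retinoic acid enzyme, was 10.693 against 8.526 to 10.467, and Rspo1, a Wnt pathway ligand, was 10.159 against 9.219 to 9.654. These 3 genes were seen first, and a list of 11 mesothelial markers was then written around them, so the list carries no test. Of the 3 tested genes that did not prompt the list, 1 was highest in WT replicate 1, against 15.2% of all genes tested. This was Gpm6a (0.398 above the mean of the other 8 arrays). Msln was 10.559 there and 10.599 in HO replicate 1, and Krt19 was 12.649 on both of these arrays. Below the filter, Bnc1 was highest in WT replicate 1 (9.343 against 8.018 to 9.061), as were 21.6% of all genes below the filter. Wt1, also below it, was above the mean of the other arrays there (0.418), and Calb2 was lower (-0.229). HO replicate 1, whose Upk3b was 11.877, had a member median of -0.016 against the other 8 arrays. The part of these cells in the member values was not tested.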
